A study of Mus musculus with 9 samples.

Results

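The 51 genes described here belong to the transcriptional arm of the amino acid response: the kinases and transcription factors that start it, the amino acid synthesis enzymes, transporters and stress regulators that ATF4 is known to induce, and the cytosolic aminoacyl-tRNA synthetases. They were chosen by symbol from a written list, with earlier results of these data known. All 51 were found among the 23329 genes of the deposited count table. By role they were 5 kinases and transcription factors, 8 amino acid synthesis enzymes, 4 enzymes of folate-bound carbon metabolism, 6 stress regulators and secreted factors, 8 amino acid transporters and 20 synthetases. The RNA came from pancreatic islets of male mice, in 5 libraries with the genotype label Pdx1A4, called mutant here, and 4 with the label Pdx1+/-, called control here. The labels do not explain Pdx1A4, do not say whether the mutants also carry the allele of the controls, and give no age. Pdx1 encodes a homeodomain transcription factor of pancreas formation and beta cell function. The labels tie no library to an animal, so the spread that the tests use is one between libraries and may be technical.

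When amino acids are short, uncharged tRNA activates the kinase GCN2 (Eif2ak4), while heme shortage or mitochondrial stress activates HRI (Eif2ak1), double-stranded RNA activates PKR (Eif2ak2) and misfolded protein in the endoplasmic reticulum activates PERK (Eif2ak3). Each phosphorylates the initiation factor eIF2, which lowers general translation but favours translation of the Atf4 messenger. ATF4 pairs with C/EBP proteins on composite sites and raises genes for amino acid synthesis, uptake and tRNA charging. Because Atf4 is controlled at translation, its mRNA level is no direct measure of the protein. Acinar cells and beta cells both make secreted protein at a high rate.

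The libraries held 6092010 to 9163253 counts, and their content of cell type marker RNA differed by group. Pdx1 stood at 15.6, 4.18, 7.13, 17.8 and 19.9 CPM in mutants 1 to 5, against 36.0, 32.0, 23.8 and 26.2 CPM in controls 1 to 4, with every mutant below every control, where CPM is counts scaled to a common library size with TMM, a trimmed mean of gene ratios. Genes of the acinar list (34 found, 31 called higher, none at 0 in every library) held 15.2% to 27.3% of counts in mutants and 3.20% to 5.46% in controls. The 7 hormone genes held 0.0691% to 7.99% in mutants and 16.9% to 21.0% in controls, with the lowest shares, 0.0691% and 1.21%, in mutants 2 and 3. The 21 endocrine secretory genes, which mark the labelled tissue, held 0.0191% of counts in mutant 2, up to 1.35% in the other mutants and 2.46% to 3.46% in controls. Tested gene by gene, edgeR called 0 of the 7 hormone genes and 6 of the 21 endocrine secretory genes, these 6 as lower. DESeq2 called 6 of the hormone genes and 19 of the endocrine secretory genes lower. On the mean log2 CPM of each list, acinar genes differed by 2.62 (exact permutation adjusted p = 0.0278, higher in 5 of 5 mutants than in any control), hormone genes by -3.00 (exact permutation adjusted p = 0.0278, lower in 5 of 5) and endocrine secretory genes by -2.45 (exact permutation adjusted p = 0.0278, lower in 5 of 5). Ductal genes differed by 1.03 (exact permutation adjusted p = 0.0278, higher in 5 of 5), but by 0.93 with scaling by relative log expression and 0.70 with library totals alone, where they did not pass (exact permutation adjusted p = 0.0556 and 0.0889). The macrophage, endothelial and stellate lists did not pass (lowest exact permutation adjusted p = 0.0889). Every result that follows lies beside this shift in marker RNA, which cannot be told apart from the genotype, and fewer cells of a type cannot be told apart from less RNA per cell in these bulk samples.

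The composite ATF4 and C/EBP site reads TGATGNAA, where N is any base, and it was searched on both strands of promoter windows from RefSeq (GRCm38.p6), which run from 250 bases before to 50 after each start. Of the 51 genes 39 had a window, and 12 of these held the site (30.8%), against 1219 of all 27025 genes with a window (4.51%). The form TGATGCAA, which is 1 of the 4 that N allows, was in 9 of the 39 (23.1%) and in 1.03% of all genes. Many of the 51 were listed because ATF4 is known to induce them, so these higher shares are no independent result. By role the site was in 4 of 6 stress regulators, 5 of 12 synthetases, 2 of 7 amino acid synthesis genes, 1 of 5 transporters, 0 of 5 kinases and transcription factors and 0 of 4 folate enzymes. The matches follow with 16 bases on each side, 5′ to 3′ on the strand on which the site reads TGATGNAA, with the site in capitals, so that the neighbouring bases can be compared.
Aars, chr8:111033714-111033753, minus strand: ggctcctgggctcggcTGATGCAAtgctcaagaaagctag
Aars, chr8:111033835-111033874, minus strand: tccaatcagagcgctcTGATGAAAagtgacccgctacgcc
Asns, chr6:7693209-7693248, minus strand: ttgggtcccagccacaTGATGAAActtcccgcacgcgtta
Chac1, chr2:119351033-119351072, minus strand: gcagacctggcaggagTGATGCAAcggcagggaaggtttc
Fgf21, chr7:45615606-45615645, plus strand: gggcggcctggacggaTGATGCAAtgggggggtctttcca
Gars, chr6:55037955-55037994, minus strand: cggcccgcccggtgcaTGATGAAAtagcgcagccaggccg
Iars, chr13:49682121-49682160, minus strand: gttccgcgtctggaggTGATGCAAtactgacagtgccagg
Nupr1, chr7:126625557-126625596, plus strand: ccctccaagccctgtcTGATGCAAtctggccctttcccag
Pycr1, chr11:120643828-120643867, minus strand: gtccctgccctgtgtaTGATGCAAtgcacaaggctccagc
Slc1a4, chr11:20332694-20332733, plus strand: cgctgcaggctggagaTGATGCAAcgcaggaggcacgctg
Tars, chr15:11399650-11399689, plus strand: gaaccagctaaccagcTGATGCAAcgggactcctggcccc
Trib3, chr2:152344023-152344062, plus strand: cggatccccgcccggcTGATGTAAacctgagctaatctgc
Yars, chr4:129189890-129189929, plus strand: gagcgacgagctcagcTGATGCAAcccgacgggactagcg
Counted to the upstream edge of the site, Aars held a pair of sites, 1 beginning 112 bases before its start and 1 at base 10 after it, and in Asns the site began 23 bases before the start. The sites of Fgf21, Nupr1 and Chac1 began 139, 110 and 193 bases before the start, and those of Tars and Slc1a4 15 and 4 before it. Whole windows are printed for Asns, a well known target of the pathway, and for Nupr1, the most abundant gene of the 51, each on its own strand. In the Nupr1 window the site is on the opposite strand, so the capitals are its reverse complement.
Asns, chr6:7693160-7693459, minus strand: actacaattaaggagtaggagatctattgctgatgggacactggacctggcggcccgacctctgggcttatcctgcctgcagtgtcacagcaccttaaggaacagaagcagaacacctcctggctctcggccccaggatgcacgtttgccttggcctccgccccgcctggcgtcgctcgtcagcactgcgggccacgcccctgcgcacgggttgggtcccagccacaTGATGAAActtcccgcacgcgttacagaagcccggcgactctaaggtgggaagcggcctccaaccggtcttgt
Nupr1, chr7:126625421-126625720, minus strand: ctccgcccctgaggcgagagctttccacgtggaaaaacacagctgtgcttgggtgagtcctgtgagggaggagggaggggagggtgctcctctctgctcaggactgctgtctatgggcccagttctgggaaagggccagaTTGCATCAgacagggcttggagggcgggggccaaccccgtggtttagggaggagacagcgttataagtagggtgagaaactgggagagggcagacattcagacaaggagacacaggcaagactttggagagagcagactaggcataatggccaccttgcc
A match is a description of letters and shows no binding. Of the 12 genes with the site 6 rose in mutants, of the 27 with a window and no match 13 rose, and of the 12 with no window 9 rose. Among all 51 genes 54.9% rose, and among all tested genes 20.6%. Whether the site goes with a rise was not tested.

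Over all 51 genes, 28 rose in mutants and 1 fell, and 22 passed in neither direction (edgeR quasi-likelihood test, adjusted p under 0.05 over 12402 tested genes). All 51 passed the filter on low counts. Of all tested genes 32.4% were called, 20.6% as higher and 11.8% as lower. The share of the 51 called higher, 54.9%, lay above this background and the share called lower, 1.96%, below it. Because the 51 were chosen with earlier results of these data known, these differences are no independent result. The median log2 fold change, mutant over control, was 0.54 for the 51 genes and 0.04 for all tested genes. In 28 of the 51 every mutant lay above every control, a pattern that 18.5% of all tested genes showed, and in 1 every mutant lay below, as in 14.7% of all. Of the genes that rose only Fgf21 had overlapping groups, and Kars had separate groups without passing. DESeq2 called 27 of the 51 higher, without Hars, and 4 lower, adding Pycr1, Slc7a5 and Eprs to Mthfd1l. Over all 12402 genes it called 2518 higher and 2555 lower.

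The count of rises depended on single libraries. Without mutant 3 it was 18 (beside 1579 higher calls over all genes), and over the 9 fits that left out 1 library it ran from 18 to 30. Without mutants 2 and 3 together 17 rose and 1 fell, beside 1355 higher and 1229 lower over all genes.

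**Figure D1:**
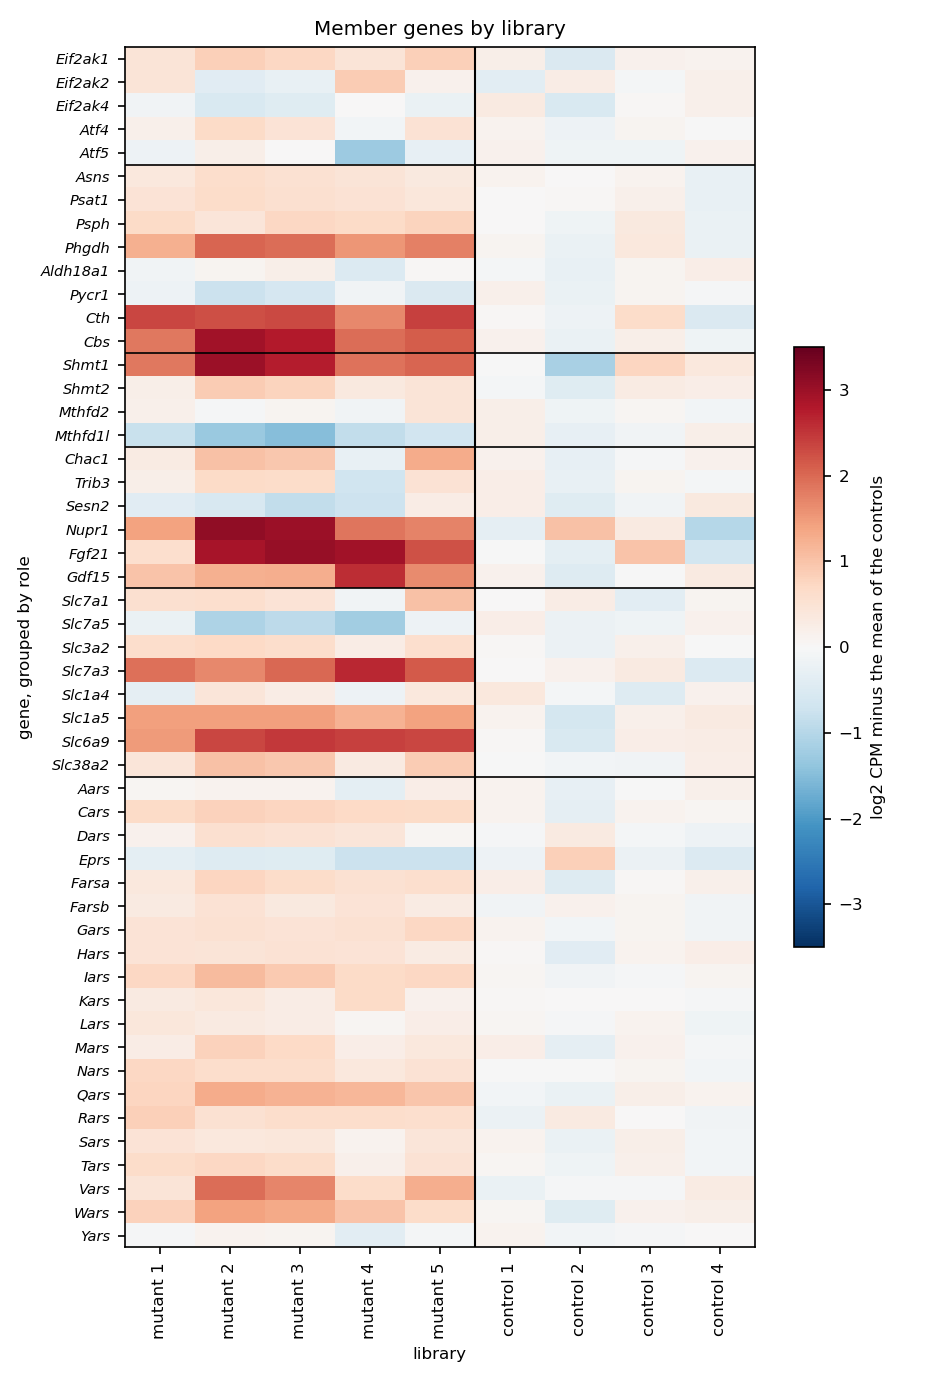
Colour gives log2 CPM of each gene minus the mean of the 4 controls, for 51 genes (rows, grouped by role with lines between roles) in 5 mutant and 4 control libraries (columns). Phgdh, Cth, Cbs, Shmt1, Nupr1, Fgf21, Slc7a3 and Slc6a9 are among the darkest red rows in mutants, Mthfd1l is blue in all 5, and most synthetase rows are pale red.

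Among the kinases and transcription factors 1 of 5 rose (20%) and none fell (median log2 fold change 0.23). Of all tested genes 20.6% were called higher and 11.8% lower, and the counts of the roles below stand beside the same shares. Atf4 stood at 176, 249, 217, 148 and 225 CPM in mutants 1 to 5, against 169, 138, 166 and 156 CPM in controls 1 to 4. Mutant 4 lay within the range of the controls and the other 4 mutants above it, and the log2 fold change of 0.37 ± 0.17 did not pass (edgeR adjusted p = 0.117). For Atf5, a related factor that is also controlled at translation, the values were 39.8, 51.6, 45.2, 18.4 and 36.5 CPM in mutants 1 to 5, against 49.5, 40.2, 40.5 and 49.5 CPM in controls 1 to 4, with mutant 4 the lowest of all 9 libraries. Atf5 did not pass (log2 fold change -0.23 ± 0.26, edgeR adjusted p = 0.503). The heme-regulated kinase gene Eif2ak1 was the member that rose, at 37.1, 48.5, 44.7, 37.5 and 48.4 CPM in mutants 1 to 5, against 31.6, 19.2, 30.6 and 30.0 CPM in controls 1 to 4. Its lowest mutant, at 37.1 CPM, lay above its highest control, at 31.6 CPM. This rise of Eif2ak1 came to 0.64 ± 0.18 in log2 units (edgeR adjusted p = 0.0239), and the call was lost without mutant 2, mutant 3 or control 2 (highest edgeR adjusted p = 0.0854). The amino acid sensor kinase gene Eif2ak4 was low throughout, at 5.57, 4.18, 4.55, 6.14 and 5.22 CPM in mutants 1 to 5, against 7.52, 4.24, 6.21 and 6.93 CPM in controls 1 to 4, and its groups overlapped (edgeR adjusted p = 0.385). Eif2ak2 ranged from 8.49 to 21.1 CPM in mutants and from 8.75 to 13.5 CPM in controls, with a log2 fold change of 0.23 ± 0.28 (edgeR adjusted p = 0.552).

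Of the genes of amino acid synthesis 6 of 8 rose and none fell (median log2 fold change 0.58), but 3 of the 6, Asns, Psat1 and Psph, did not pass with library totals alone. Cbs and Cth encode the pair of transsulfuration enzymes that turn homocysteine and serine into cysteine. Cbs stood at 164, 351, 314, 178 and 198 CPM in mutants 1 to 5, against 51.4, 39.4, 52.9 and 41.4 CPM in controls 1 to 4. Every mutant exceeded the highest control at least 3-fold, and mutants 2 and 3 were the highest. Cbs passed with a log2 fold change of 2.38 ± 0.27 (edgeR adjusted p = 0.00147). Cth stood at 63.8, 59.6, 62.3, 40.5 and 65.3 CPM in mutants 1 to 5, against 13.0, 11.0, 19.6 and 8.83 CPM in controls 1 to 4, with 4 mutants close together and mutant 4 below them but above every control. For Cth edgeR gave a log2 fold change of 2.15 ± 0.25 (adjusted p = 0.00147). Phgdh, the first enzyme of serine synthesis, stood at 201, 346, 329.6, 249 and 287 CPM in mutants 1 to 5, against 90.5, 71.6, 110.0 and 72.0 CPM in controls 1 to 4. Its rise was 1.72 ± 0.21 on the log2 scale (edgeR adjusted p = 0.00155).

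The later steps of serine synthesis had smaller log2 fold changes. Psat1, the aminotransferase of the pathway, stood at 94.4, 104, 100.1, 96.1 and 89.4 CPM in mutants 1 to 5, against 68.1, 69.8, 76.6 and 56.6 CPM in controls 1 to 4. Its groups did not overlap, though the gap between mutant 5 and control 3 was small, and the log2 fold change was 0.52 ± 0.13 (edgeR adjusted p = 0.014, lost without mutant 3 at 0.0542). Psph, the phosphatase of the last step, stood at 56.7, 48.0, 58.6, 57.3 and 61.4 CPM in mutants 1 to 5, against 36.4, 32.3, 45.6 and 30.4 CPM in controls 1 to 4, with a log2 fold change of 0.64 ± 0.15 (edgeR adjusted p = 0.0127). Its exons share 26.1% of their length with Cct6a on the opposite strand, and the strand setting of the counting is unknown. Within a library the ratio of Phgdh to Psat1 counts, which no scaling of libraries can move, was 2.13, 3.32, 3.29, 2.59 and 3.21 in mutants 1 to 5, against 1.33, 1.03, 1.44 and 1.27 in controls 1 to 4, so that the libraries of the groups did not overlap. This ratio and the others below were chosen after their values were seen and carry no test.

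Asparagine synthetase, the enzyme most often used as a readout of ATF4, rose modestly. Asns stood at 697, 839.8, 787, 747 and 686 CPM in mutants 1 to 5, against 593, 549, 594 and 453 CPM in controls 1 to 4. Mutant over control, Asns changed by 0.46 ± 0.15 on the log2 scale (standard error; edgeR adjusted p = 0.0395), and 8 of the 9 fits with 1 library omitted lost the call (all but that without mutant 1, highest edgeR adjusted p = 0.13). The proline synthesis genes did not pass. Aldh18a1 averaged 96.4 ± 16.6 CPM over the 5 mutants (SD) and 99.0 ± 14.6 CPM over the 4 controls (SD), and Pycr1 14.6 ± 2.83 CPM over the 5 mutants (SD) and 19.6 ± 2.29 CPM over the 4 controls (SD) (edgeR adjusted p = 0.871 and 0.0943).

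Among the 4 enzymes that carry carbon units on folate 1 rose and 1 fell (median log2 fold change 0.32), beside 20.6% and 11.8% of all tested genes. The cytosolic serine hydroxymethyltransferase gene Shmt1 stood at 15.0, 33.2, 28.1, 15.4 and 16.9 CPM in mutants 1 to 5, against 4.10, 1.90, 7.03 and 5.36 CPM in controls 1 to 4. Mutants 2 and 3 were the highest, and the lowest mutant was above the highest control by a factor of about 2. This rise of Shmt1 came to 2.22 ± 0.40 in log2 units (edgeR adjusted p = 0.00464). Its mitochondrial counterpart Shmt2 stood at 55.7, 89.2, 82.4, 60.9 and 65.6 CPM in mutants 1 to 5, against 45.9, 35.6, 58.4 and 56.2 CPM in controls 1 to 4, with mutant 1 inside the control range, and did not pass (log2 fold change 0.53 ± 0.20, edgeR adjusted p = 0.0661). The ratio of Shmt1 to Shmt2 counts was 0.252 to 0.372 in mutants and 0.0535 to 0.120 in controls. Mthfd1l, the mitochondrial formate-releasing synthetase, was the only gene of the 51 that fell, at 31.5, 21.8, 19.1, 29.8 and 34.1 CPM in mutants 1 to 5, against 62.2, 44.5, 49.1 and 61.7 CPM in controls 1 to 4. Mthfd1l passed with a log2 fold change of -0.99 ± 0.20 (edgeR adjusted p = 0.00688). Mthfd2, a mitochondrial folate dehydrogenase and a known ATF4 target, stood at 183, 157, 174, 149.8 and 222 CPM in mutants 1 to 5, against 187, 146, 169.8 and 153 CPM in controls 1 to 4, and its groups overlapped (log2 fold change 0.11 ± 0.15, edgeR adjusted p = 0.581). Mthfd1l counts per Mthfd2 count came to 0.110 to 0.199 in mutants and 0.289 to 0.404 in controls.

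Of the 6 stress regulators and secreted factors Nupr1, Fgf21 and Gdf15 rose, none fell, and Chac1, Trib3 and Sesn2 did not pass (median log2 fold change 1.19). Chac1, which degrades glutathione, stood at 57.6, 95.2, 90.1, 39.4 and 114 CPM in mutants 1 to 5, against 52.2, 38.6, 45.9 and 52.1 CPM in controls 1 to 4. Mutants 2, 3 and 5 were well above the controls, mutant 1 a little above them and mutant 4 within their range, and the log2 fold change of 0.75 ± 0.29 did not pass (edgeR adjusted p = 0.0685). It passed without mutant 1 or mutant 4 (log2 fold changes between 0.57 and 0.86 over the fits that left out 1 library). Trib3, a pseudokinase that restrains ATF4, stood at 89.7, 125, 121, 47.7 and 109.6 CPM in mutants 1 to 5, against 90.8, 65.4, 82.3 and 74.5 CPM in controls 1 to 4, again with mutant 4 the lowest of all 9. Trib3 did not pass (log2 fold change 0.33 ± 0.26, edgeR adjusted p = 0.333). Sesn2, a leucine-binding inhibitor of mTORC1, averaged 14.1 ± 4.89 CPM over the 5 mutants (SD) and 19.0 ± 4.42 CPM over the 4 controls (SD) (edgeR adjusted p = 0.224).

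Nupr1, a small stress-induced chromatin protein, was the most abundant of the 51 genes and held 0.588% to 1.49% of all counts in mutants and 0.135% to 0.406% in controls. Its level was 5654, 18349, 17042, 7877 and 7058 CPM in mutants 1 to 5, against 1707, 4333, 2634 and 1061 CPM in controls 1 to 4. The spread within each group was wide, with mutants 2 and 3 and control 2 the highest of their groups, yet the groups did not overlap. Its rise was 2.20 ± 0.53 on the log2 scale (edgeR adjusted p = 0.0137). Fgf21, a hormone of the fasting and stress response that acinar cells are known to make, stood at 4.96, 24.5, 27.2, 25.3 and 15.5 CPM in mutants 1 to 5, against 3.28, 2.63, 6.56 and 2.12 CPM in controls 1 to 4. Mutant 1 lay below control 3, and the other 4 mutants lay above every control. Mutant over control, Fgf21 changed by 2.41 ± 0.52 on the log2 scale (standard error; edgeR adjusted p = 0.00918). Gdf15, a circulating stress cytokine, stood at 29.5, 34.9, 36.0, 89.5 and 47.1 CPM in mutants 1 to 5, against 16.5, 10.8, 14.6 and 18.7 CPM in controls 1 to 4, with mutant 4 the highest. This rise of Gdf15 came to 1.64 ± 0.34 in log2 units (edgeR adjusted p = 0.00773). With the acinar score as a covariate Nupr1, Fgf21 and Gdf15 had log2 fold changes of -1.54, -1.30 and 0.97 (edgeR adjusted p = 0.892, 0.898 and 0.91). The groups explained 91.5% of the variance of that score, and with it 0 of all 12402 genes passed. With the endocrine secretory score the log2 fold changes were 1.16, 1.77 and 1.97, and Gdf15 alone passed (edgeR adjusted p = 0.242, 0.126 and 0.0305).

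Transporters of amino acids rose in 5 of 8 cases and none fell (median log2 fold change 0.65), but Slc3a2 and Slc38a2 did not pass with library totals alone (log2 fold changes 0.21 and 0.39, edgeR adjusted p = 0.46 and 0.178), nor did Slc3a2 with relative log expression (edgeR adjusted p = 0.0518). The arginine and lysine carrier gene Slc7a3 stood at 65.6, 55.4, 69.2, 108 and 76.9 CPM in mutants 1 to 5, against 17.5, 19.0, 21.4 and 12.5 CPM in controls 1 to 4. Slc7a3 passed with a log2 fold change of 2.09 ± 0.24 (edgeR adjusted p = 0.00147). The glycine transporter gene Slc6a9 stood at 28.8, 51.2, 56.6, 53.0 and 51.8 CPM in mutants 1 to 5, against 10.4, 7.02, 12.1 and 12.2 CPM in controls 1 to 4, with mutant 1 apart from the other 4. For Slc6a9 edgeR gave a log2 fold change of 2.21 ± 0.24 (adjusted p = 0.00147), and 38.8% of its exon length is shared with Ccdc24 on the opposite strand. Slc1a5, the glutamine and neutral amino acid exchanger, stood at 61.6, 62.5, 61.6, 53.3 and 60.6 CPM in mutants 1 to 5, against 25.0, 14.9, 26.0 and 28.6 CPM in controls 1 to 4, with mutant 4 the lowest mutant and above every control. Its rise was 1.34 ± 0.19 on the log2 scale (edgeR adjusted p = 0.00232). Slc38a2, a sodium-coupled neutral amino acid transporter, stood at 100.3, 154, 145, 93.3 and 139 CPM in mutants 1 to 5, against 74.5, 70.2, 68.5 and 87.6 CPM in controls 1 to 4 (log2 fold change 0.75 ± 0.18, edgeR adjusted p = 0.0139, lost without mutant 3 at 0.0544), and its groups did not overlap.

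Slc7a5 and Slc3a2 encode the light and the heavy chain of a leucine exchanger, and their log2 fold changes had opposite signs. Slc3a2, whose product also serves as the heavy chain of other transporters, stood at 832, 881, 838, 653 and 824 CPM in mutants 1 to 5, against 567, 474, 621 and 539 CPM in controls 1 to 4. Mutant over control, Slc3a2 changed by 0.55 ± 0.15 on the log2 scale (standard error; edgeR adjusted p = 0.0235), and the call was lost without mutant 2, mutant 3, control 1, control 2 or control 4 (highest edgeR adjusted p = 0.0915). Slc7a5 stood at 25.7, 14.3, 15.9, 12.9 and 26.6 CPM in mutants 1 to 5, against 35.1, 26.0, 26.9 and 33.6 CPM in controls 1 to 4. Mutants 1 to 4 lay below every control, mutant 1 by little, and mutant 5 lay between controls 2 and 3, with a log2 fold change of -0.67 ± 0.25 that did not pass (edgeR adjusted p = 0.0589) but passed in DESeq2 (adjusted p = 0.0180). The ratio of Slc7a5 to Slc3a2 counts was 0.0308, 0.0162, 0.0190, 0.0197 and 0.0323 in mutants 1 to 5, against 0.0620, 0.0550, 0.0434 and 0.0624 in controls 1 to 4, with no overlap. Slc7a1 and Slc1a4, carriers of cationic and of small neutral amino acids, did not pass (log2 fold changes 0.54 ± 0.22 and 0.11 ± 0.21, edgeR adjusted p = 0.0829 and 0.715).

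**Figure D2:**
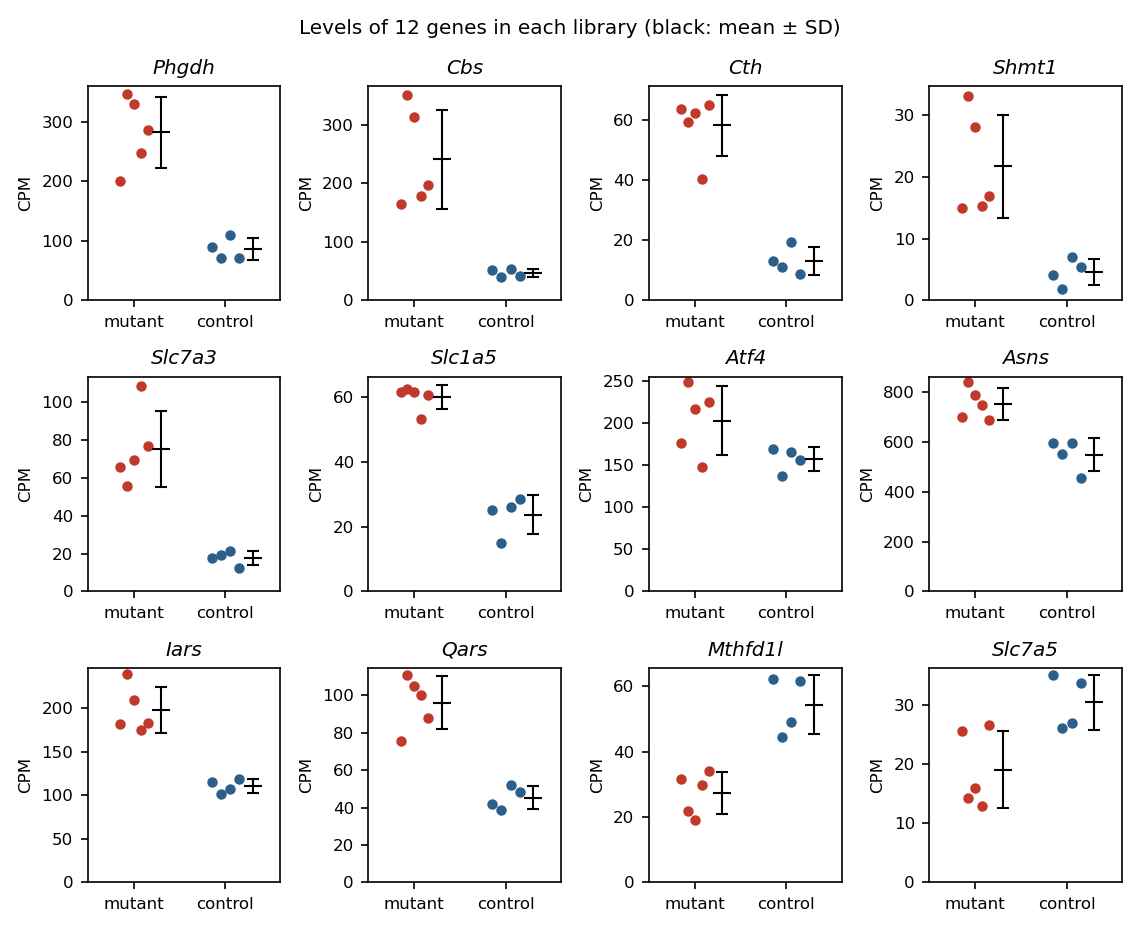
Each panel gives CPM per library (points) and the mean ± SD (black) of 1 gene, mutants on the left (n = 5) and controls on the right (n = 4), from 0 upward. Phgdh, Cbs, Cth, Shmt1, Slc7a3, Slc1a5, Asns, Iars and Qars do not overlap and are higher in mutants, Mthfd1l does not overlap and is lower, and Atf4 and Slc7a5 overlap.

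Cytosolic aminoacyl-tRNA synthetases attach amino acids to their tRNAs, and 12 of the 20 genes rose, none fell and 18 had a positive log2 fold change (median 0.51). With library totals alone 3 of the 20 rose and 1 fell, beside 1093 higher and 2342 lower over all 12402 genes. The 12 were Cars, Farsa, Farsb, Gars, Hars, Iars, Nars, Qars, Rars, Tars, Vars and Wars, with log2 fold changes from 0.38 (Farsb) to 1.30 (Vars). The glutamine enzyme gene Qars stood at 75.8, 111, 105, 100.1 and 87.9 CPM in mutants 1 to 5, against 41.7, 38.5, 52.2 and 48.5 CPM in controls 1 to 4. This rise of Qars came to 1.08 ± 0.16 in log2 units (edgeR adjusted p = 0.00247). The isoleucine enzyme gene Iars stood at 181, 239, 209, 175 and 183 CPM in mutants 1 to 5, against 115, 101, 108 and 118 CPM in controls 1 to 4. Iars passed with a log2 fold change of 0.84 ± 0.14 (edgeR adjusted p = 0.00331).

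Cars, for cysteine, stood at 223, 247, 239, 229.5 and 225 CPM in mutants 1 to 5, against 153, 114, 154 and 149 CPM in controls 1 to 4, with the 5 mutants within a narrow range and control 2 low among the controls. For Cars edgeR gave a log2 fold change of 0.71 ± 0.13 (adjusted p = 0.00509). Wars, for tryptophan, which interferon also induces, stood at 227, 342, 322, 259 and 201 CPM in mutants 1 to 5, against 137, 96.3, 144 and 148 CPM in controls 1 to 4, with mutants 2 and 3 the highest. Its rise was 1.04 ± 0.20 on the log2 scale (edgeR adjusted p = 0.00641). Of the other risers, Farsb, Hars and Asns were the least stable calls, and Farsa and Tars each failed to pass in 5 of the 9 fits with 1 library omitted. Nars was lost without mutant 3 alone (edgeR adjusted p = 0.0593), Hars in 8 fits (highest 0.173), Farsb in 8 (highest 0.124), Farsa without mutants 2, 3 or 4 or controls 2 or 3 (highest 0.105) and Tars without mutants 2 or 3 or controls 1, 2 or 4 (highest 0.0863).

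The 8 synthetases that did not pass were Aars, Dars, Eprs, Kars, Lars, Mars, Sars and Yars. Aars and Yars, for alanine and tyrosine, both with the composite site, had log2 fold changes of 0.04 ± 0.16 and -0.04 ± 0.13 (edgeR adjusted p = 0.841 and 0.82). Exons of Aars share 23.1% of their length with Exosc6 on the same strand. Eprs, which encodes the joint enzyme for glutamate and proline, was the most negative, at 478 to 633 CPM in mutants and 580 to 1440 CPM in controls, where control 2 alone held the highest value (log2 fold change -0.63 ± 0.26, edgeR adjusted p = 0.0891). Of the 8 enzymes that belong to the multisynthetase complex (Eprs, Iars, Lars, Mars, Qars, Rars, Kars and Dars) 3 rose, and of the other 12 9 rose. Whether these counts differ was not tested. Per kilobase of exon, mutant levels ran from 7.69 CPM for Vars to 287 CPM for Nars, and control levels from 3.11 CPM to 194 CPM for the same genes. On that per-length scale Gars, Sars and Rars followed Nars in mutants at 142, 138 and 126 CPM, while in controls Eprs was second at 175 CPM.

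How large these rises are depended on how libraries were brought to a common scale. Of the 20 synthetases 12 rose with TMM, 9 with relative log expression and 9 with TMM without acinar and hormone genes. DESeq2 called 11 of them higher and limma-voom with quality weights 15. With library totals alone most of the synthetase calls were lost. As a share of all counts, the 20 synthetases together held 0.453% ± 0.0608 over the 5 mutants (SD) and 0.454% ± 0.0286 over the 4 controls (SD). The 50 genes other than Nupr1 held 0.784% ± 0.101 over the 5 mutants (SD) and 0.725% ± 0.0773 over the 4 controls (SD). TMM scaling multiplied library sizes by 0.8105 to 1.043 in mutants and 0.9385 to 1.278 in controls. With library totals alone, a setting chosen after these shares were seen, the median of all genes moved by -0.33 on the log2 scale, and 13 of the 51 genes rose and 3 fell (Mthfd1l, Pycr1 and Eprs). Of the synthetases 3 then rose (Qars, Vars and Wars) and 1 fell (Eprs, log2 fold change -0.90, edgeR adjusted p = 0.0205). Over all genes 63.6% of calls were higher with TMM, 51.8% with scaling by relative log expression, 49.6% in DESeq2 and 31.8% with totals alone.

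Thus 13 genes rose under TMM, relative log expression, TMM without acinar and hormone genes, library totals alone and DESeq2: Phgdh, Cth, Cbs, Shmt1, Nupr1, Fgf21, Gdf15, Slc7a3, Slc1a5, Slc6a9, Qars, Vars and Wars. Vars apart, which did not pass without mutants 2 and 3 together (log2 fold change 0.75), these also passed in each fit that left out 1 library and in the fit without mutants 2 and 3. With totals alone the log2 fold changes of Cbs, Cth and Slc7a3 were 2.00, 1.84 and 1.77. For Iars, Nars and Asns they were 0.48, 0.24 and 0.12, and none of these 3 passed (edgeR adjusted p = 0.0594, 0.344 and 0.602).

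**Figure D3:**
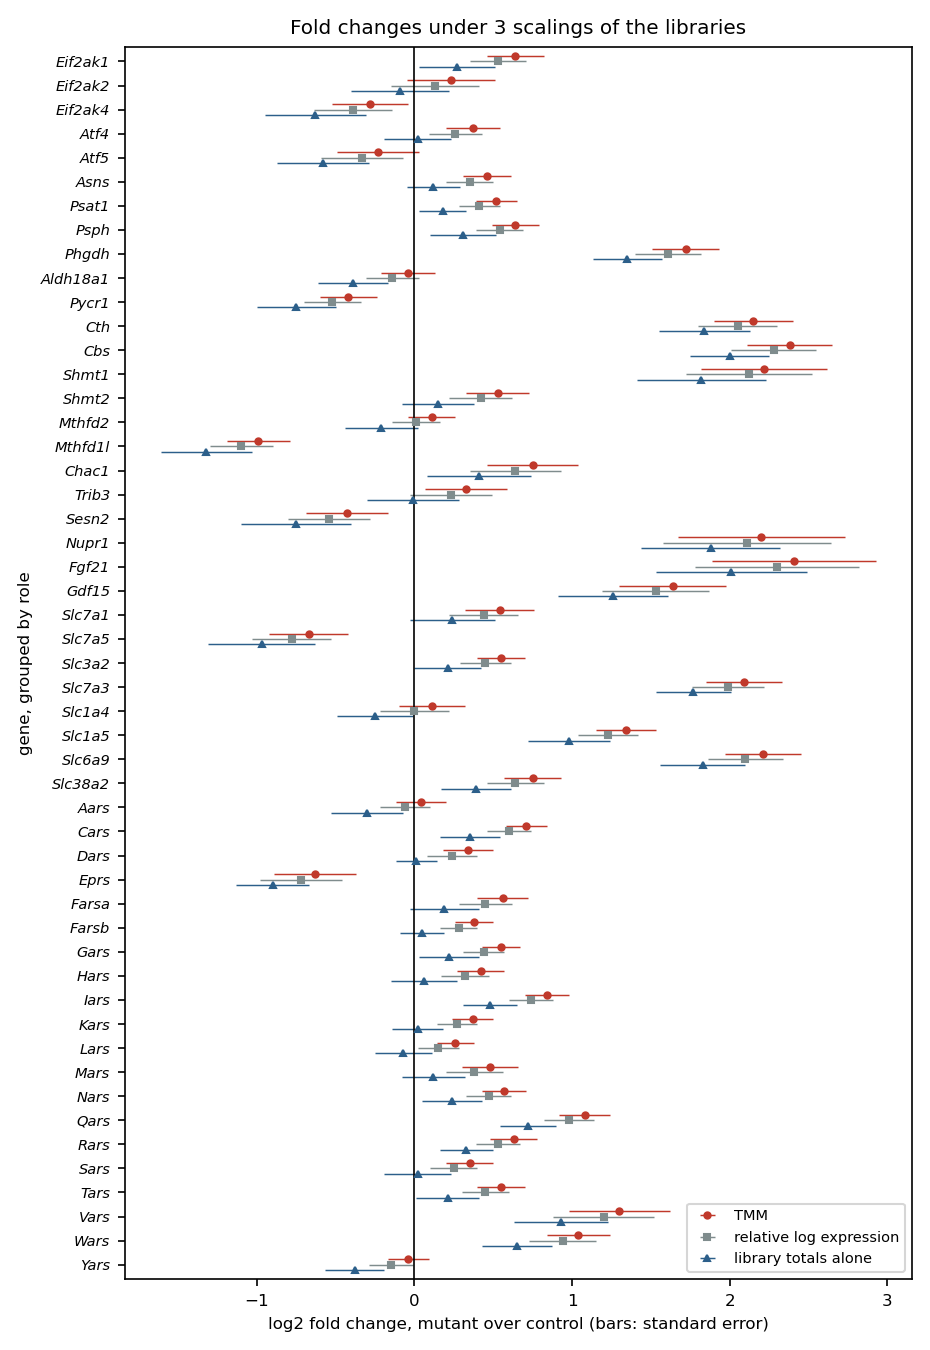
Points give the log2 fold change, mutant over control, of each of the 51 genes with its standard error (bars) under TMM (red circles), relative log expression (grey squares) and library totals alone (blue triangles). The 13 genes called under every scaling stay right of 0, while most synthetases move from about 0.5 under TMM to between 0 and 0.5 with totals alone.

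The mutants also differed among themselves. Of the 28 genes that rose, 15 had mutants 2 and 3 as the highest pair of the 5, and 12 had their lowest mutant value in mutant 1. Mutants 2 and 3 had the highest acinar shares, 27.3% and 26.6%, though mutant 4 was close at 25.8%. They also had the lowest hormone shares, 0.0691% and 1.21%, against 4.7% to 7.99% in the other mutants. Over all 51 genes mutant 4 was the lowest mutant for 21, among them Atf4, Atf5, Chac1 and Trib3. The same counts were not made over all tested genes, so these patterns may not be particular to the 51. Mutants 3 and 4 had acinar shares of 26.6% and 25.8%, but hormone shares of 1.21% and 4.7%. Between these libraries Cbs, Phgdh and Shmt1 were lower in mutant 4, and Slc7a3 and Gdf15 were higher in mutant 4. Slc1a5, Cth and Rars were about as high in mutants 1 and 5, with acinar shares of 16.1% and 15.2%, as in mutants 2 and 3. These genes were chosen after their values were seen, and the part of the acinar share in their levels was not tested by these values. The 9 libraries fall into separate groups, so no correlation with the acinar share was computed.

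**Figure D4:**
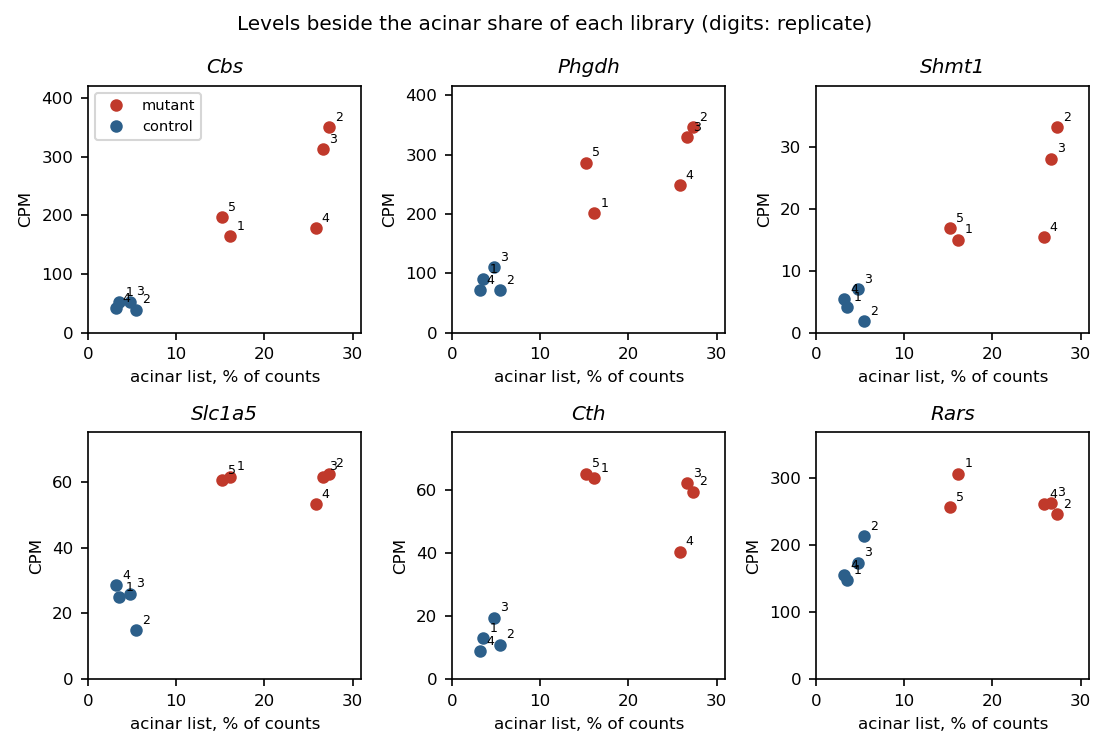
CPM of 6 genes (vertical axes, from 0) is plotted beside the percent of counts held by the acinar list (horizontal axis) in each library, mutants in red and controls in blue, with replicate digits. Cbs, Phgdh and Shmt1 are highest in mutants 2 and 3, and Slc1a5, Cth and Rars are as high in mutants 1 and 5.

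A pair of fits with a cell content score as a covariate bear on the same counts. With the acinar score, which the groups explained to 91.5% of its variance, edgeR called 0 of the 51 genes, with 5 at an unadjusted p under 0.05, and 0 of all 12402 genes, with 539 at an unadjusted p under 0.05. With the endocrine secretory score, explained to 47.8%, 8 of the 51 rose (Cbs, Cth, Gdf15, Phgdh, Qars, Slc1a5, Slc6a9 and Slc7a3) and 0 fell, with 20 at an unadjusted p under 0.05, beside 562 higher and 77 lower over all genes. There the log2 fold changes of Cbs and Phgdh were 1.72 and 1.35, and those of Slc7a3 and Cth 2.38 and 2.08. The acinar share and the genotype cannot be told apart in these libraries.

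Other genes of the pathway, from lists that do not overlap the 51, moved in part. Of 8 subunits of eIF2 and its exchange factor eIF2B 4 rose and 0 fell (median log2 fold change 0.58), among them Eif2b2, at 106, 142, 133, 117 and 116 CPM in mutants 1 to 5, against 55.6, 61.5, 77.3 and 59.9 CPM in controls 1 to 4. Mutant over control, Eif2b2 changed by 0.95 ± 0.15 on the log2 scale (standard error; edgeR adjusted p = 0.00279), and the log2 fold changes of Eif2b4 and Eif2s3x were 0.63 and 0.40, the second failing in 4 of the 9 fits with 1 library omitted. Of 8 regulators of the response 2 rose and 1 fell. Eif2ak3, the kinase of endoplasmic reticulum stress, rose, at 74.8, 198, 169, 115 and 153 CPM in mutants 1 to 5, against 53.5, 53.1, 50.6 and 39.7 CPM in controls 1 to 4 (log2 fold change 1.53 ± 0.27, edgeR adjusted p = 0.00418). Oma1, a mitochondrial protease that relays stress, rose by 0.68 on the log2 scale (failing in 5 of those fits), and Impact, an inhibitor of GCN2, fell, at 92.1, 14.6, 36.4, 30.4 and 48.3 CPM in mutants 1 to 5, against 119, 333, 115 and 113 CPM in controls 1 to 4 (log2 fold change -1.94 ± 0.52, edgeR adjusted p = 0.0197).

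Among 34 tested genes of a wider ATF4 network 12 rose and 7 fell (median log2 fold change 0.11), so this list moved both ways. The cystine transporter gene Slc7a11 stood at 174, 220.4, 215, 336 and 158 CPM in mutants 1 to 5, against 45.9, 68.8, 54.5 and 55.8 CPM in controls 1 to 4, with a log2 fold change of 1.97 ± 0.24 (edgeR adjusted p = 0.00152). Pck2, the mitochondrial phosphoenolpyruvate carboxykinase, and Eif4ebp1, a translation repressor, rose by 1.27 and 1.12. Of 17 mitochondrial tRNA synthetases 5 rose and 1 fell (median 0.47). Fars2 and Tars2 rose by 0.90 and 0.85, while Nars2 had 21.1 ± 1.98 CPM over the 5 mutants (SD) and 36.9 ± 1.29 CPM over the 4 controls (SD) and a log2 fold change of -0.80 ± 0.12 (edgeR adjusted p = 0.00253).

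In the list of synthetase scaffold and tRNA handling genes 6 of 10 rose and 1 fell (median 0.60), among them Eef1e1, a scaffold of the multisynthetase complex (0.81), the tRNA methyltransferase gene Trmt1 (1.14) and Pstk, a kinase of selenocysteine tRNA (1.45). Of 16 genes of amino acid sensing by mTORC1 edgeR called 0 higher and 3 lower, and DESeq2 0 higher and 5 lower (median -0.21). Those 3 were Sesn1, Sesn3 and Rragb (-0.43, -0.68 and -1.47). Each of these 3 failed to pass in 5 or 6 of the 9 fits with 1 library omitted. For all of these lists the shares called by edgeR stand against 20.6% of all genes called higher and 11.8% called lower. DESeq2 called 2518 of the 12402 tested genes higher and 2555 lower.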

How the data were processed

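Polyadenylated RNA was sequenced from low-input libraries, per the labels' protocols. The authors deposited whole-number counts per gene without normalization, and every column was used (0 left out). Tools listed for the project in the submitters' processing notes, with no roles, are STAR, RSEM, Bowtie2, HOMER, DESeq2, R 4.1.0, Cell Ranger, Seurat and Signac, and the build is mm10. Which of them made these counts, and with which strand setting, was not stated.

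The contrast was fitted in R 4.3.3 with the quasi-likelihood functions of edgeR 4.0.16, after filterByExpr and TMM, with Benjamini-Hochberg adjustment over 12402 genes, a threshold of 0.05, two-sided, with no covariate. Standard errors are the log2 fold change over the square root of F. Alternatives used DESeq2 1.42.0 and limma 3.58.1. The pipeline was tested on simulated data that held no shift in cell type content between the groups, so that test does not bear on the choice of scaling. Totals bound the precision, and replicate libraries differed beyond sampling noise, so none was a copy.

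Values per library are given for the 4 called members of lowest p in each role and for 12 members listed by name, and for up to 3 genes of lowest p per other list. The members and lists were chosen with earlier results of these data known. Exon lengths and overlaps came from GENCODE vM21, and marker scores were compared by exact two-sided permutation, for which 5 against 4 libraries allow no p below 0.0159.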

Additional observations from a re-analysis of the deposited data

Results flagged for a closer look

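In 138 groups of libraries (the mutants and the controls for each of 69 genes) 12 held a library whose gap to its nearest neighbour was large for the range of its group, where chance gives about 1 in 20. Values are log2 CPM. Mutant 4 was low for Cth (5.35, others 5.90 to 6.03), Slc3a2 (9.35, others 9.69 to 9.78), Slc1a5 (5.74, others 5.93 to 5.97) and Aars (7.22, others 7.63 to 7.79). Mutant 1 was low for Slc6a9 (4.86, others 5.69 to 5.83) and Pck2 (6.89, others 7.53 to 7.62). Mutant 5 was high for Gars (8.56, others 8.32 to 8.39) and low for Sesn1 (3.74, others 4.08 to 4.21). Control 2 was low for Eif2ak1 (4.28, others 4.92 to 4.99), Cars (6.84, others 7.22 to 7.27) and Eif2b4 (5.05, others 5.50 to 5.55), and high for Impact (8.38, others 6.83 to 6.90).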

How the results depend on the processing

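Of the 51 genes 28 rose and 1 fell. With the acinar score as a covariate 0 rose and 0 fell, and Asns (-0.15), Mthfd1l (0.39), Nupr1 (-1.54), Fgf21 (-1.30), Farsb (-0.10), Vars (-0.01), Impact (0.39), Oma1 (-0.16) and Pstk (-0.25) turned direction without passing. With the endocrine score 8 rose and 0 fell, with library totals alone 13 and 3, and without mutants 2 and 3 17 rose. Rises and falls were 23 and 3 with relative log expression, and 24 and 2 with TMM without acinar and hormone genes. They were 27 and 4 with DESeq2 and 33 and 3 with limma-voom. Leaving out each library gave 18 to 30 rises and 1 to 2 falls. With the replicate number as a block (libraries 1 to 4 of each group) 15 rose and 2 fell, and over all genes 1645 and 772. The numbers did not pair the libraries (correlations of same-numbered libraries between -0.0453 and 0.181). No filter on low counts gave 21 rises and a stricter filter 28. Over all genes (2560 higher, 1462 lower) DESeq2 gave 2518 and 2555, limma-voom 3009 and 2294, library totals 1093 and 2342, the endocrine score 562 and 77, and the fits without mutant 3, control 1 and mutants 2 and 3 1579 and 900, 1678 and 699, and 1355 and 1229. Marker levels, mutant minus control, ran over the fits without 1 library from 2.45 to 2.77 (acinar), 0.79 to 1.22 (ductal), -2.84 to -1.74 (endocrine secretory), -3.46 to -1.92 (hormone), -1.04 to -0.34 (macrophage), -2.27 to -1.27 (stellate) and -1.78 to -0.82 (endothelial). For acinar, ductal, endocrine and hormone genes the exact permutation adjusted p was 0.0333 without mutant 1. It was 0.05, the threshold itself, without any other single mutant, and 0.0625 without any single control. Macrophage and stellate genes passed only without mutant 1. Without mutants 2 and 3 the acinar, ductal, endocrine and hormone levels were 2.29, 0.94, -1.29 and -1.36, where too few splits remain to pass (exact permutation adjusted p = 0.1). The ductal level was 0.93 with relative log expression and 0.70 with library totals alone, and passed in neither. Where no construction is named, the cause was not tested.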

Other observations

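Within the wider ATF4 network, genes chosen here after their values were seen lay far apart. Tdh, a threonine dehydrogenase that yields glycine, stood at 11.4, 47.2, 38.7, 3.95 and 22.2 CPM in mutants 1 to 5, against 3.14, 1.90, 4.80 and 3.13 CPM in controls 1 to 4 (log2 fold change 2.91 ± 0.66, edgeR adjusted p = 0.011), and mutant 4 lay within the range of the controls. Stc2, a secreted glycoprotein of the stress response, and Atf3, a stress-induced factor, rose by 1.82 and 1.15 (edgeR adjusted p = 0.0302 and 0.0245), and each failed to pass in 5 of the 9 fits with 1 library omitted. Neither passed without mutants 2 and 3 (log2 fold changes 0.70 and 0.55). In the fit that includes the acinar score both turned direction without passing (-1.02 and -0.42). Ddit4, an mTORC1 inhibitor, stood at 38.7, 40.4, 39.1, 27.8 and 34.4 CPM in mutants 1 to 5, against 63.3, 46.7, 64.6 and 92.8 CPM in controls 1 to 4 (log2 fold change -0.89 ± 0.20, edgeR adjusted p = 0.0109). Vldlr, a lipoprotein receptor, had a log2 fold change of -0.85 ± 0.16 (edgeR adjusted p = 0.0057). Ddit3, the factor CHOP of endoplasmic reticulum stress, averaged 65.4 ± 24.9 CPM over the 5 mutants (SD) and 111 ± 19.0 CPM over the 4 controls (SD). Every mutant lay below every control, by little (highest mutant 89.6 CPM, lowest control 89.9 CPM). Ddit3 did not pass (log2 fold change -0.76 ± 0.31, edgeR adjusted p = 0.0845). It passed in DESeq2 (adjusted p = 0.0334) and in edgeR without mutants 2 and 3 (adjusted p = 0.0434). Cebpg, a partner of ATF4, did not pass in edgeR either (log2 fold change -0.95 ± 0.37, adjusted p = 0.0732), but passed in DESeq2 (adjusted p = 0.0228). It stood at 163, 462, 145 and 128 CPM in controls 1 to 4. Over the fits that left out 1 library its log2 fold change ran from -1.14 to -0.41.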
